A study of Mus musculus with 8 samples.

Results

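The cadherins and protocadherins of the mouse hippocampus were followed through bulk RNAseq and single nucleus RNAseq (snRNAseq) of mice that lack most dentate granule cells (DGCs), the principal neurons of the dentate gyrus. The members are all genes of the bulk files with a symbol made of Cdh and a number, or starting with Pcdh: 94 of 46517 genes, with 91 distinct symbols. Of these, 91 genes passed a filter on low counts that 20687 genes of the whole table passed. The 3 that did not pass were Cdh16, Cdh3 and a row named Pcdha4 that was listed at 0 in every library. In the snRNAseq table of 24051 genes, 35 members are listed, and Pcdha1 is the only one of these from the clustered protocadherins.

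All mice carried Gfap-Cre, which is active in part of the neural progenitors of the medial and dorsal cortex. Mutant mice were Gfap-Cre;Wlsfl/- and control mice were Gfap-Cre;Wlsfl/+, so the controls also carried Cre and kept 1 functional allele of Wls, the gene for the cargo receptor that Wnt proteins need to be secreted. Hippocampi were taken at 12 weeks, both hippocampi of 1 mouse per library or sample, with 2 mice per genotype for each assay. The bulk libraries held 56002381 to 79576196 expected counts, and the snRNAseq samples held 5304 to 10460 nuclei with 26307081 to 76486132 UMIs.

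Several facts about the samples bear on what follows. Wls itself stood at 3.67 and 6.86 CPM (TMM-scaled counts, relative to library size) in the mutant bulk libraries against 13.2 and 13.0 in the controls, and at 6.96 and 11.7 against 20.7 and 27.4 CPM in the nuclei. Although the labels call the mice male, Xist was at 230 and 518 CPM in the libraries of mutant 2 and control 2 and near 1 in the others, and Ddx3y showed the opposite pattern, so that each bulk replicate number holds 1 mutant and 1 control of the same sex pattern. All 4 snRNAseq samples had Ddx3y at 31.6 to 53.8 CPM and Xist under 4. Summed over the 8 markers of choroid plexus, the secretory epithelium of the ventricles, the bulk library of mutant 2 reached 5765 CPM and that of mutant 1 reached 823, against 248 and 192 in the controls. DGC nuclei were 1.70% and 4.43% of nuclei in the mutant samples and 36.1% and 27.9% in the controls, and the 6 DGC markers summed to 78.0 and 71.0 CPM in mutant bulk libraries and 369 and 378 in the controls. In the bulk libraries, fewer DGCs and less RNA per DGC cannot be told apart. Any 2 snRNAseq samples shared 8 to 21 cell barcodes, at most 0.309% of the smaller sample.

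Cadherins are calcium-dependent adhesion molecules that join cells through repeated extracellular domains. The type I classical cadherins (such as Cdh2, N-cadherin) and the type II classical cadherins (such as Cdh8 and Cdh9) bind catenins inside the cell, and combinations of them set which neurons adhere and form synapses. Cdh9 is known in the hippocampus for its part in the synapse that DGC axons, the mossy fibers, make on CA3 pyramidal neurons. The delta protocadherins, among them Pcdh8, Pcdh9, Pcdh17 and Pcdh19, are encoded one by one, whereas the alpha, beta and gamma protocadherins lie in 3 adjoining clusters on chromosome 18 from which each neuron chooses a set of variable exons, giving it a surface identity.

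Among the 10 members with the highest control level, Pcdh1 led at 189 and 182 TPM (a relative transcript number that accounts for length) in the control libraries. It was followed by Pcdhgc5 at 97.9 and 90.7, Cdh2 at 82.0 and 80.1, and Pcdh20 at 76.1 and 75.5. Pcdhgc3, at 65.8 and 59.5, and Pcdh9, at 57.5 and 53.3, came next. Pcdh10 (49.8 and 49.1), Pcdh8 (48.5 and 48.4), Pcdh19 (49.1 and 45.3) and Cdh8 (46.1 and 45.8) closed the list. Pcdh19 overlapped Pcdh8 and Cdh8, its neighbors in that order, while each of the first 6 stood above the next in both control libraries. At the other end, 10 members had a mean control level under 1 TPM.

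Across the bulk libraries no member met the study's criteria of a fold change above 3 with a false discovery rate (FDR, edgeR quasi-likelihood test) below 0.05, where 0.198% of all genes were called lower and 0.0193% higher. With no fold threshold, 3 of the 91 tested members had an FDR below 0.05, all lower in the mutant: Pcdh8, Pcdh20 and Cdh9. The share of all genes lower at that FDR was 1.01%, and the share higher was 0.198%, with no member among the latter. At an unadjusted p below 0.05, 20 members were lower and 3 higher, against 9.94% and 8.86% of all genes. The values of both mutant libraries lay below those of both controls for 34 members, against 25.4% of all genes, and above them for 13 members, against 25.8% of all genes. The median log2 fold change (mutant over control) was -0.08 over the members and 0.01 over all genes.

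The start regions of the 3 genes at that FDR are shown because the genes were lower together and because the mutation acts in the Wnt pathway, whose nuclear factors TCF and LEF bind motifs such as CTTTGAT and CTTTGTT. Each run holds 300 bases, from 250 before to 50 after the RefSeq start on build GRCm38.p6, written 5′ to 3′ on the strand of the gene. The capitals mark a match to CTTTGTT read on the opposite strand.
Pcdh8, chr14:79771263-79771562, minus strand: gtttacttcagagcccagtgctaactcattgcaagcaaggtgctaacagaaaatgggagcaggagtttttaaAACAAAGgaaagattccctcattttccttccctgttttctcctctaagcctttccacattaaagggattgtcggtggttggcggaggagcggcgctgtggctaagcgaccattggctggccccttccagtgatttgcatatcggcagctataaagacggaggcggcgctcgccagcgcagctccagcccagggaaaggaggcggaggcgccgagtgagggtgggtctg
Pcdh20, chr14:88471347-88471646, minus strand: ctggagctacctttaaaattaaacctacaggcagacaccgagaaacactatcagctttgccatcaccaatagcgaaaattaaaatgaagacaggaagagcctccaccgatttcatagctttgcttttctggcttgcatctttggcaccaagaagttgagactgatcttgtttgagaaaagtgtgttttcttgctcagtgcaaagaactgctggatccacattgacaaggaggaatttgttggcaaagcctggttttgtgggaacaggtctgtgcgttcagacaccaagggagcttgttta
Cdh9, chr15:16728665-16728964, plus strand: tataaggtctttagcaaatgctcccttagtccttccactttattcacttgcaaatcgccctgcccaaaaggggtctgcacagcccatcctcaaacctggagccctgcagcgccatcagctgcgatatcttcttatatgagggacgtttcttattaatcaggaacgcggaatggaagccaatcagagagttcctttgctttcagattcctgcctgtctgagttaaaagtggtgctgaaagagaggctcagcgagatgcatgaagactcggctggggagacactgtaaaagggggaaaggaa
Searched on both strands, CTTTGTT was found in 5.85% and CTTTGAT in 3.73% of the 32851 start regions of this length in the reference table, and CATCTG, an E-box motif bound by neuronal bHLH factors, in 17.2%. Neither these TCF/LEF motifs nor the E-box occurred in the windows of Pcdh20 and Cdh9. Of the 22 non-clustered members whose start regions were searched, 3 held a TCF/LEF match, namely Pcdh8, Cdh6 and Cdh26. A match is a run of letters and was not tested as a binding site.

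Pcdh8 (Arcadlin), a delta protocadherin induced by neuronal activity that takes part in removing N-cadherin from synapses, had the largest bulk difference of these 3 genes. Its gene lies on chromosome 14 from 79766775 to 79771312 (mm10). It measured 47.3 and 51.0 CPM in the mutant libraries and 88.3 and 87.7 CPM in the controls, a log2 fold change of -0.84 (SE 0.06, adjusted p = 0.015 by edgeR). Pcdh20, a non-clustered protocadherin, measured 115 and 119 CPM in the mutants and 170.3 and 170.0 in the controls, a log2 fold change of -0.54 (SE 0.05, adjusted p = 0.023 by edgeR). Cdh9 measured 35.0 and 30.9 CPM in the mutants and 56.0 and 50.3 in the controls, a log2 fold change of -0.69 (SE 0.09, adjusted p = 0.046 by edgeR). For all 3 genes the mutant libraries lay below the controls within each sex pattern as well as over the whole. Leaving out either control library took all 3 calls away, with adjusted p from 0.165 to 0.273 and log2 fold changes between -0.85 and -0.54.

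**Figure D1:**
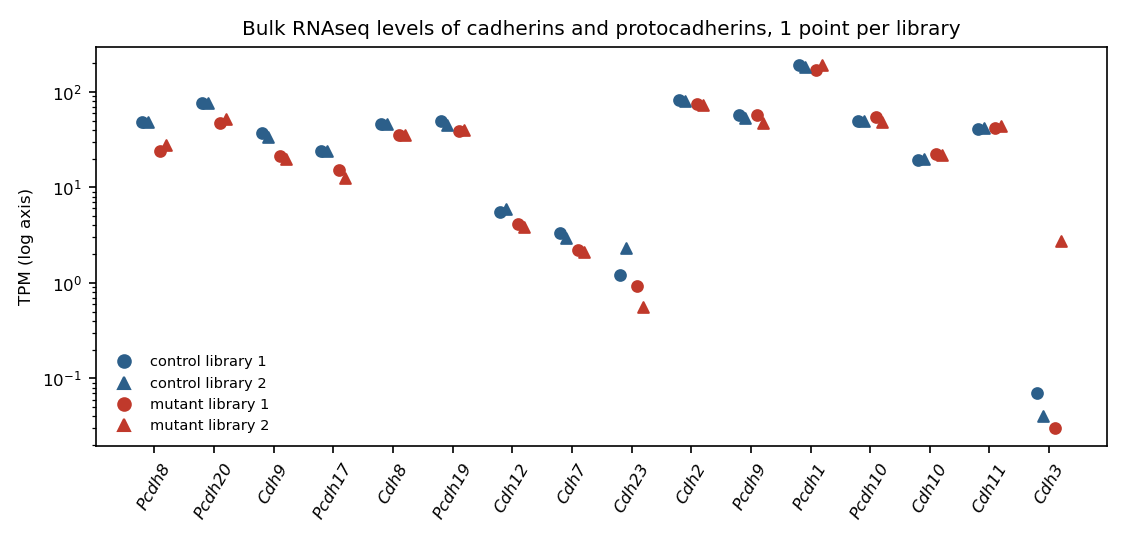
TPM on a log axis for 16 members in the 4 bulk libraries; each point is 1 library, blue for control and red for mutant, circles for replicate 1 and triangles for replicate 2. Pcdh8, Pcdh20 and Cdh9 lie lower in both mutant libraries, Cdh2, Pcdh9 and Pcdh1 differ little, and Cdh3 is high in the library of mutant 2 alone, at 2.72 TPM.

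Among the other delta protocadherins, Pcdh17, which acts in synapse assembly and axon extension, measured 73.7 and 58.3 CPM in the mutant libraries and 108 and 107 in the controls, with an adjusted p of 0.067 by edgeR at a log2 fold change of -0.71. Pcdh19, the X-linked gene mutated in a female-limited epilepsy, measured 99.9 and 93.8 CPM in the mutants and 114 and 120 in the controls (log2 fold change -0.27, adjusted p = 0.104 by edgeR). Pcdh10 was at 134 and 124 CPM in the mutants and 119 and 114 in the controls, and Pcdh7 at 68.9 and 68.0 against 61.8 and 65.2. Neither passed the test. Of the 9 delta protocadherins, 4 lay lower in both mutant libraries and 2 higher, against 25.4% and 25.8% of all genes.

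Among the 13 type II classical cadherins, 4 lay lower in both mutant libraries and 6 higher, against 25.4% and 25.8% of all genes. Cdh9 was the one at an FDR below 0.05. Cdh8 measured 62.2 and 59.0 CPM in the mutants and 74.3 and 74.2 in the controls (log2 fold change -0.29, adjusted p = 0.077 by edgeR). Cdh12 was at 11.8 and 10.4 CPM against 14.8 and 15.6, and Cdh7 at 3.84 and 3.62 against 6.15 and 5.36. These groups do not overlap, yet neither gene passed the test, with adjusted p of 0.135 and 0.133. On the other side, Cdh10 measured 35.2 and 32.4 CPM in the mutants and 28.2 and 28.0 in the controls, with an adjusted p of 0.167 by edgeR at a log2 fold change of 0.27. Cdh11, known in mesenchymal as well as neural cells, measured 89.77 and 89.76 CPM in the mutants and 81.4 and 81.5 in the controls (log2 fold change 0.14, adjusted p = 0.182). Cdh18 and Cdh19 each had a log2 fold change of 0.36, and Cdh24 one of 0.18, with adjusted p from 0.352 to 0.407. Cdh5 (VE-cadherin), which joins endothelial cells, was at 13.5 and 13.8 CPM in the mutants and 12.5 and 12.9 in the controls.

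Of the type I classical cadherins, Cdh2 measured 154 and 145 CPM in the mutant libraries and 160 and 155 in the controls, a log2 fold change of -0.08 with an SE of 0.05. Cdh4 (R-cadherin) overlapped between genotypes, at 11.8 and 9.79 against 11.1 and 11.0 CPM. Cdh15 (M-cadherin) was low throughout, at 1.27 and 1.23 CPM against 2.05 and 2.13, with an adjusted p of 0.149 by edgeR. Cdh1 (E-cadherin) was below 0.5 CPM in every library. Cdh3 (P-cadherin) had 4 and 415 counts in the mutant libraries and 7 and 5 in the controls, so that 1 library held nearly all of them. That library, of mutant 2, is the one with 5765 CPM of choroid plexus markers. In the nuclei, the cells deposited as choroid plexus held 173 Cdh3 UMIs in 184 nuclei of mutant 2 and 16 UMIs in 9 nuclei of control 1, or 181 and 268 CPM, and in the 11 types compared below the control samples held at most 2.73 CPM of Cdh3.

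Of the other cadherins, Cdh23, a large cadherin of the hair cell tip link, measured 1.65 and 1.70 CPM in the mutant libraries and 3.56 and 5.18 in the controls. Its log2 fold change of -1.39 (SE 0.24) was the largest among the members that lay lower in both mutants, with an adjusted p of 0.077 by edgeR. Cdh13 (T-cadherin), which is anchored by a lipid and lacks the intracellular part, overlapped between genotypes in bulk, at 44.7 and 35.1 against 45.4 and 42.0 CPM.

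The clustered protocadherins are 59 of the 94 members, 15 alpha, 22 beta and 22 gamma genes, all on chromosome 18. Within the alpha cluster a median of 53.5% of the exonic bases of a gene was shared with another gene of the cluster, and within the gamma cluster 44.7%, because their variable exons are spliced to common constant exons, while the median was 0% in the beta cluster. The division of reads among alpha and gamma genes is thus the estimate of the authors' RSEM run, and the sums are more certain than single genes. Summed, the alpha genes measured 193 and 189 CPM in the mutant libraries and 192 and 191 in the controls, a log2 fold change of -0.01 (SE 0.05, adjusted p = 0.971 by edgeR). The gamma genes summed to 701 and 685 CPM against 722 and 692, a log2 fold change of -0.03 (SE 0.05, adjusted p = 0.832). The beta genes summed to 153 and 170.3 CPM against 172 and 186, a log2 fold change of -0.14 (SE 0.07, adjusted p = 0.378 by edgeR). The beta sum of both mutant libraries lay below both controls, narrowly, and none of the 3 sums passed the test.

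Within the clusters, no gene had an FDR below 0.05. Of the 58 tested genes, 21 lay lower in both mutant libraries and 4 higher, against 25.4% and 25.8% of all genes. In the beta cluster this was 9 genes lower and 0 higher, with Pcdhb16 at 4.38 and 4.84 CPM in the mutants and 6.40 and 7.66 in the controls (log2 fold change -0.61, adjusted p = 0.145 by edgeR), followed by Pcdhb2 at -0.57 and Pcdhb21 at -0.56 on the log2 scale. Pcdhac2, one of the C-type isoforms that neurons express without choosing, measured 93.2 and 88.6 CPM in the mutants and 81.7 and 80.6 in the controls, with an adjusted p of 0.179 by edgeR. The gene ENSMUSG00000023036, named Pcdhga8 in the deposited files and Pcdhgc4 in the GENCODE vM21 annotation, had 101.7 CPM in the library of mutant 1 and 29.8, 27.7 and 24.2 in mutant 2 and the controls, and its log2 fold change of 1.34 (SE 0.55, adjusted p = 0.278 by edgeR) rests on that library. A second gene carries the same symbol, Pcdhga8, in the files and overlapped between genotypes, at 18.4 and 19.8 against 20.3 and 16.5 CPM.

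**Figure D2:**
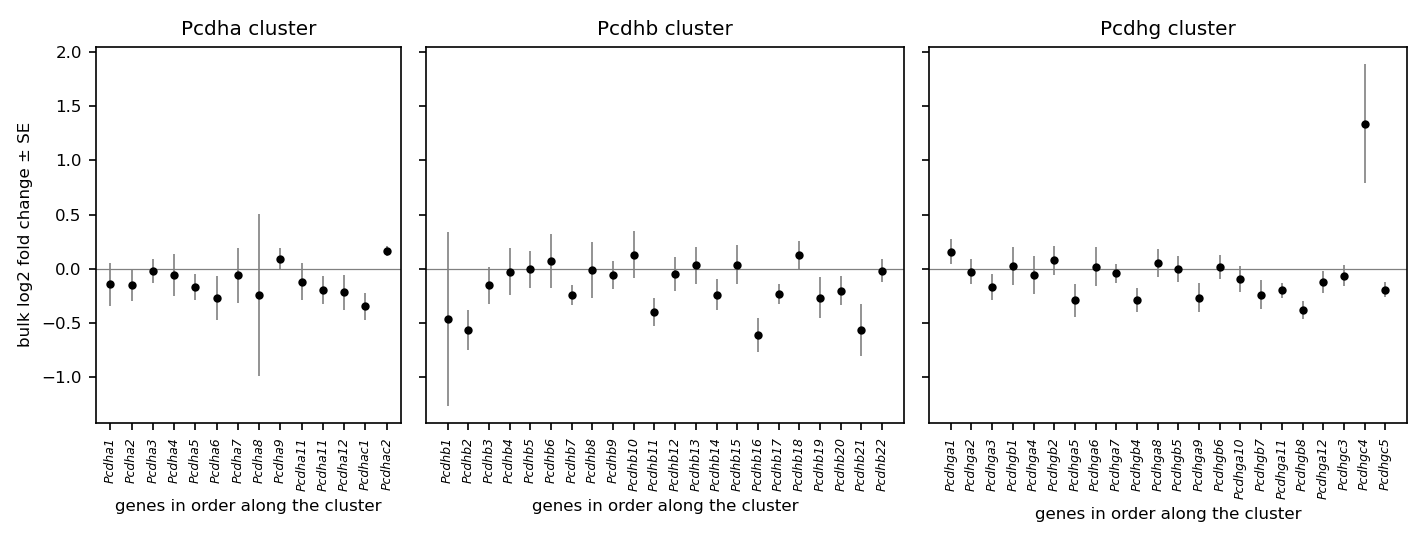
Bulk log2 fold change (mutant over control, 2 libraries each) of the 58 tested clustered protocadherins in their order along each cluster, named as in GENCODE vM21; bars are 1 SE. Most points lie within a log2 value of 0.5 of zero, and the point at 1.34 is the gene that was high in the library of mutant 1 alone.

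The snRNAseq data were then used to ask in which cells each member is found. Of the 35 listed members, 26 reached 20 CPM of the summed UMIs in both control samples in the deposited cell type where they were highest, among 11 types with enough nuclei. For 18 of the 26 both control samples of that type stood above both of the next type. OPCs (oligodendrocyte precursors) were highest for 7 members, DGCs for 6, oligodendrocytes for 4 and excitatory neurons outside the named fields for 3. Each of the 26 kept its highest type when the deposited size factors were used for scaling.

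The 6 members highest in control DGC nuclei were Pcdh8, Cdh9, Cdh12, Cdh8, Pcdh19 and Pcdh20. Pcdh8 stood at 47.9 and 40.8 CPM in DGC nuclei and 23.8 and 23.2 in the next type, inhibitory neurons. Cdh9 stood at 961 and 751 CPM in DGC nuclei and 620 and 542 in CA3 nuclei, the targets of the DGC axons. Cdh12 was at 690.1 and 563 CPM in DGC nuclei with excitatory neurons next at 529.7 and 337, and Cdh8 at 649 and 617 with CA2 next at 513 and 417. Pcdh19 and Pcdh20 overlapped the next type, with DGC values of 144 and 128 CPM for Pcdh19 and 57.9 and 36.6 for Pcdh20.

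Other members marked other cells. Cdh23 was at 689 and 903 CPM in microglial nuclei, 20.1 times the level in mossy cells, the next type. Cdh19 (554 and 445 CPM), Pcdh9 (19540 and 13027) and Cdh20 (1175 and 953) were highest in oligodendrocytes, and Cdh4 in astrocytes, at 246 and 293 CPM with inhibitory neurons next at 75.3 and 85.2. Pcdh15, a tip link partner of Cdh23 in hair cells and a known marker of OPCs, was at 4287 and 3575 CPM in OPC nuclei, 4.20 times the next type. Pcdh11x and Cdh6 were also highest in OPCs, 3.20 and 2.70 times the next type. Cdh24 was highest in CA3 nuclei, at 55.6 and 55.1 CPM against 22.6 and 22.7 in OPCs, and Cdh18 in excitatory neurons, at 588 and 500.3 CPM. Cdh5 was scarce in these data: 0 to 10 UMIs in the 4 to 11 nuclei of the deposited type EC in each of the 3 samples that had any, whose nuclei held the endothelial transcript Cldn5 at 1310 to 1728 CPM and the 7 meninges markers at 1145 to 2895 CPM in sum. More Cdh5 UMIs lay in nuclei deposited as inhibitory neurons, 30 of 49 and 108 of 157 in the mutant samples and 20 of 47 and 69 of 113 in the controls. The nuclei of that type also held the 5 endothelial markers, at 91.2 and 167 CPM in sum in the mutants and 103 and 184 in the controls. These Cdh5 UMIs are therefore not shown to lie in neurons. Pcdh12 had no UMI in the EC nuclei.

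**Figure D3:**
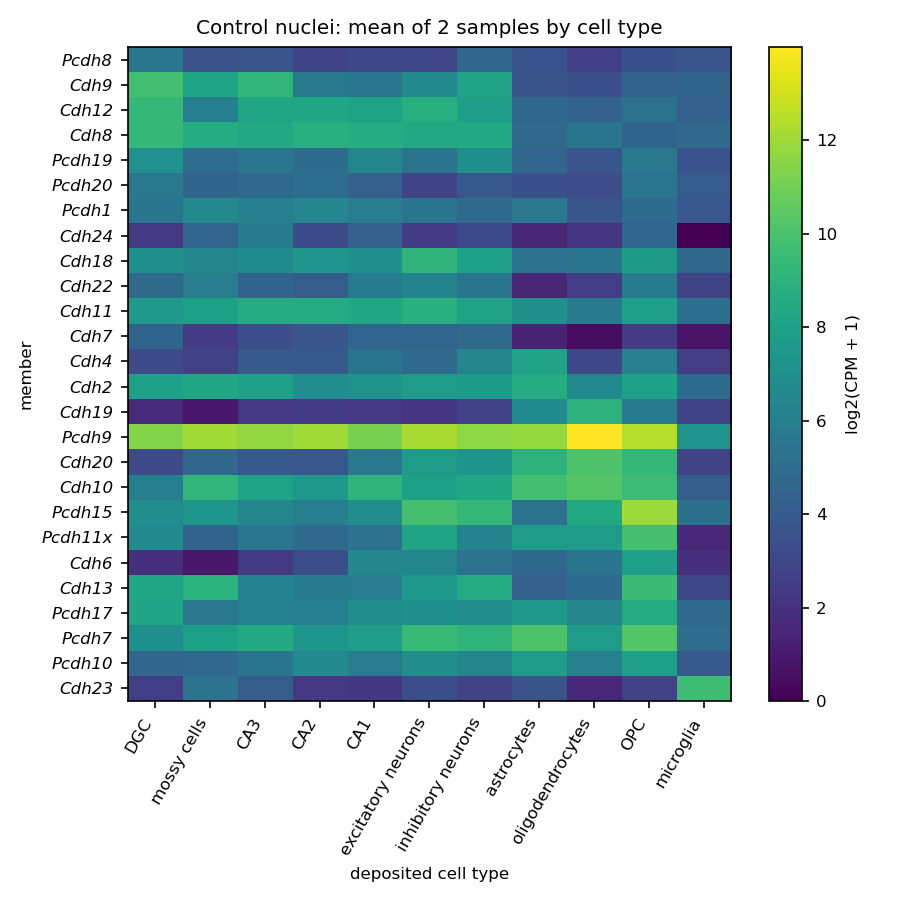
Heat map of log2(CPM + 1) for the 26 members that reached 20 CPM, mean of the 2 control samples in each of 11 deposited cell types, with rows ordered by the type where each member is highest. Cdh23 stands out in microglia and Pcdh9 in oligodendrocytes, and the first 6 rows are the members highest in DGC nuclei.

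These 6 members were set against the bulk data, which played no part in choosing them by cell type. All 6 lay lower in both mutant bulk libraries, with log2 fold changes from -0.84 (Pcdh8) to -0.27 (Pcdh19) and a median of -0.50. Among all genes chosen by the same rule as highest in DGC nuclei, 70.2% of 674 lay lower in both mutant libraries, with a median log2 fold change of -0.21. Of the 20 members highest in another type, 6 lay lower and 7 higher, against 28.1% and 29.1% of such genes overall. Pcdh17 was highest in OPC nuclei but 2.52 times higher in DGC nuclei than in all other control nuclei together, and its bulk log2 fold change of -0.71 was close to that of Cdh9. Cdh23 departed from this order, with the largest difference in bulk and 0.333 times as much in DGC nuclei as in the others. In microglial nuclei, where Cdh23 is highest, the genotypes overlapped, at 670 and 1142 CPM in the mutants and 763 and 1028 in the controls. The log2 fold change there was 0.15 (SE 0.27), and mutant 1 held 13 such nuclei. Over the 26 members, the log2 ratio of DGC to other control nuclei and the bulk log2 fold change had a Spearman rho of -0.68 and a Pearson r of -0.52, a description across genes that share the same libraries and are not independent replicates.

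**Figure D4:**
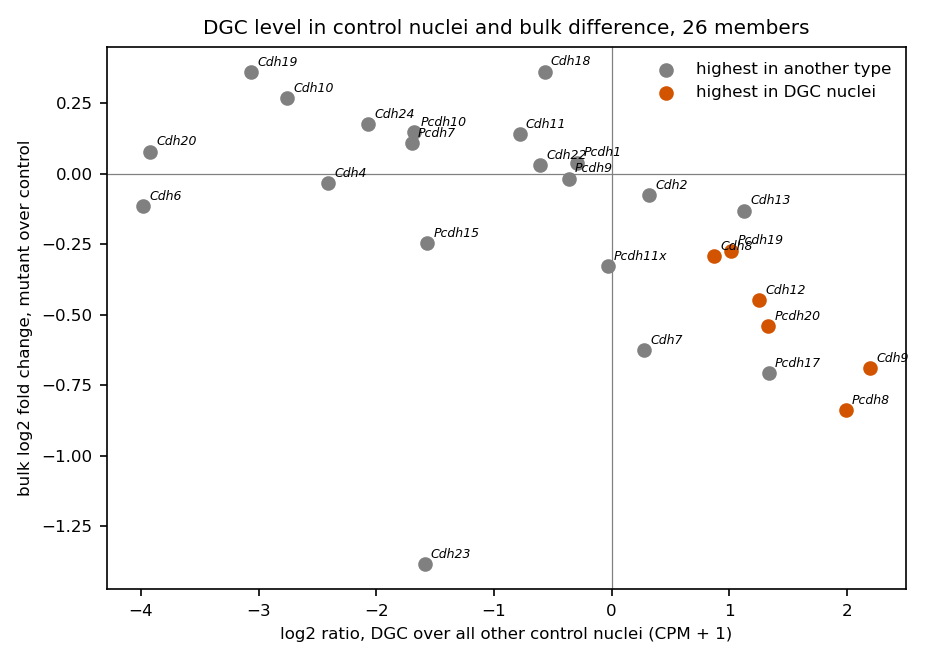
Each point is 1 of 26 members; the horizontal axis is the log2 ratio of its CPM + 1 in DGC nuclei to that in all other nuclei of the control samples, and the vertical axis its bulk log2 fold change, mutant over control. The 6 members highest in DGC nuclei (orange) lie at the lower right, and Cdh23 lies apart at -1.39.

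Over all nuclei of each sample, none of the 33 tested members was called at a fold change above 2 and an FDR below 0.05, and 0% of all genes were. At an unadjusted p below 0.05, 3 of the 33 members were lower and 4 higher, against 8.49% and 6.3% of all genes. DESeq2 called 4, a count that cannot be read against all genes because their share is not given. Both mutant samples lay below both controls for 5 members (24% of all genes did so) and above them for 10 (24.5% of all genes). Pcdh8 measured 7.66 and 6.68 CPM in the mutant samples and 22.3 and 18.0 in the controls, with a log2 fold change of -1.49 and an adjusted p of 0.161 by edgeR. Pcdh20 was at 10.0 and 11.9 CPM against 31.5 and 22.1, and Cdh9 at 197 and 180 against 436 and 322. With DGC nuclei left out, the log2 fold change of Cdh9 was -0.15 in place of -1.01, that of Pcdh8 -0.61 in place of -1.49, and that of Pcdh20 -0.80 in place of -1.29.

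Within DGC nuclei, 90 and 463 in the mutant samples and 2336 and 2007 in the controls, 3 of the 26 tested members were called, against 0.64% of all genes lower and 0.827% higher. Pcdh8 was lower, and Cdh4 and Cdh13 were higher. Pcdh8 measured 14.3 and 18.4 CPM in mutant DGC nuclei and 47.8 and 41.0 in controls, a log2 fold change of -1.33 (SE 0.24, adjusted p = 0.028 by edgeR). Cdh13 measured 619 and 818 CPM in the mutants and 272 and 333 in the controls, a log2 fold change of 1.26 (SE 0.18, adjusted p = 0.013 by edgeR). Cdh4 measured 26.3 and 44.6 CPM in the mutants and 7.02 and 9.34 in the controls, a log2 fold change of 2.26 (SE 0.28, adjusted p = 0.0078 by edgeR). The mutant 1 values rest on 6 UMIs of Pcdh8 and 11 of Cdh4, and leaving out either mutant sample took away all 3 calls, with adjusted p from 0.0514 to 0.425. The Cdh4 level of mutant DGC nuclei was no higher than that of all nuclei in the same samples, 44.2 and 58.9 CPM. In the controls the gap was wider, with DGC nuclei at 7.02 and 9.34 CPM and all nuclei at 30.7 and 43.3. Markers of astrocytes, where Cdh4 is highest, summed to 246 and 221 CPM in mutant DGC nuclei and 202 and 206 in controls. Of these 5 markers, 2 were higher in both mutants and 2 lower. Their part in the Cdh4 difference was not tested. Markers of CA3 neurons summed to 751 and 866 CPM in mutant DGC nuclei against 597 and 597 in controls, with 1 of the 5 higher in both mutants and 2 lower, and those of excitatory neurons to 524 and 556 against 965 and 1011, with 4 of the 5 lower in both mutants. That fall was not particular to DGC nuclei. The excitatory markers summed to 664 and 638 CPM in mutant CA3 nuclei against 895 and 922 in controls. In OPC nuclei they summed to 132 and 186 against 314 and 256. In inhibitory neurons they overlapped, at 136 and 144 against 138 and 183. The 6 DGC markers summed to 444 and 456 CPM in mutant and 453 and 437 in control DGC nuclei. Of these 6, 4 were lower in both mutants and 2 higher, so the similar sums join opposite differences.

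The other members that are highest in DGC nuclei did not pass the test there. Pcdh20 measured 21.5 and 29.1 CPM in mutant and 57.8 and 36.9 in control DGC nuclei, with an adjusted p of 0.219 by edgeR, and Cdh8 measured 502 and 451 against 648 and 620.3. Cdh9, at 1038 and 727 against 959 and 755 CPM, and Pcdh19, at 163 and 126 against 144 and 129, overlapped. Cdh12 was at 885 and 785 CPM against 689 and 566. Pcdh7 measured 59.8 and 76.1 CPM in mutants and 136 and 111 in controls (log2 fold change -0.79, adjusted p = 0.089). In all, both mutant samples lay below both controls for 6 members, where 26.1% of all genes did, and above them for 6, where 22.2% did.

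The DGC nuclei of the 2 genotypes differed in their markers of position along the hippocampus. Nuclei with a UMI of Trhr, a transcript of the ventral dentate gyrus, and none of Lct, a transcript of the dorsal dentate gyrus, were 20.0% and 29.8% of DGC nuclei in the mutant samples and 2.61% and 4.09% in the controls, and the reverse pattern was seen in 4.44% and 4.10% against 11.0% and 17.5%. In the control samples alone, 19 members reached 20 CPM in DGC nuclei, and 10 of these had a higher mean in ventral-marker than in dorsal-marker nuclei. Pcdh8 was lower in ventral-marker nuclei, at 23.2 and 24.3 CPM against 56.1 and 41.1, as was Pcdh7, at 64.5 and 46.1 against 112 and 120.0. Cdh13 was higher, at 351 and 546 CPM against 222 and 259, and so was Cdh10, at 111 and 69.1 against 72.6 and 32.7. Cdh4 stood at 15.5 and 16.6 against 5.24 and 5.45 CPM, on 6 and 13 UMIs against 7 and 17. These are values of 2 control mice with no test.

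When the genotypes were compared in ventral-marker DGC nuclei alone, 18 and 138 mutant and 61 and 82 control nuclei, a comparison added after the data were seen, none of 21 tested members was called by edgeR and neither was any of the 7854 genes. At an unadjusted p below 0.05 stood 3 members, Cdh13, Cdh4 and Cdh8, and 7.54% of all genes. Pcdh8 was then at 34.5 and 22.2 CPM in the mutants and 24.0 and 25.2 in the controls, a log2 fold change of -0.07 (SE 0.46) in place of -1.33. Pcdh7 had a log2 fold change of 0.52 (SE 0.33) in place of -0.79. Cdh13 remained at 782 and 1013 CPM against 362 and 567, a log2 fold change of 0.97 (SE 0.23, adjusted p = 0.336 by edgeR), and Cdh4 at 23.0 and 51.1 against 16.0 and 17.3, a log2 fold change of 1.46 (SE 0.45, adjusted p = 0.461). Cdh8, which neurons of many fields express, was at 598 and 402 CPM against 778 and 637, a log2 fold change of -0.59 (SE 0.23, adjusted p = 0.571). For Cdh13, Cdh4 and Cdh8 the genotypes did not overlap in these nuclei, and for Pcdh8 and Pcdh7 they did. The 18 nuclei of mutant 1 held 92149 UMIs of all genes, against 1099338 in mutant 2. Its values of Pcdh8 and Cdh4 therefore rest on very few UMIs, and the control values of Pcdh8 on 9 and 19.

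**Figure D5:**
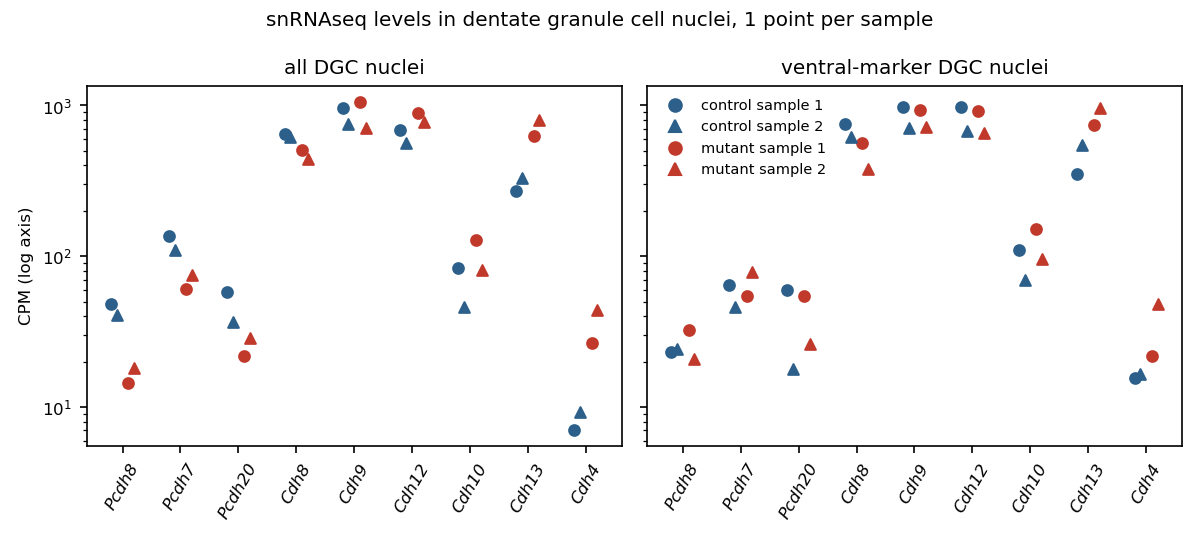
CPM of summed UMIs on a log axis for 9 members in all DGC nuclei (left) and in the DGC nuclei with a Trhr UMI and no Lct UMI (right); each point is 1 sample, blue for control and red for mutant, circles for replicate 1 and triangles for replicate 2. Pcdh8 and Pcdh7 separate by genotype on the left and overlap on the right, whereas Cdh13 and Cdh4 separate in both. On the right, the points of mutant 1 rest on 18 nuclei with 92149 UMIs of all genes, so low values there hold few UMIs.

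In mossy cells, the excitatory neurons of the hilus that are targets of DGCs, 1 of 20 tested members was called. Pcdh15 measured 464 and 363 CPM in the mutant samples and 170.0 and 171 in the controls, a log2 fold change of 1.25 (SE 0.24, adjusted p = 0.037 by edgeR), where 0.439% of all genes were called higher and 0.151% lower. The samples held 27 and 89 mutant and 38 and 32 control mossy cell nuclei, and the call was lost without either mutant sample (adjusted p of 0.147 and 0.141) and in DESeq2 (adjusted p of 0.084). Markers of OPCs, where Pcdh15 is highest, summed to 10.7 and 5.36 CPM in the mutant mossy cells and 51.1 and 30.7 in the controls. Of these 4 markers, 1 was lower in both mutants and 0 higher. Markers of oligodendrocytes, whose control nuclei held 382 and 353 CPM of Pcdh15, summed to 225 and 234 CPM in the mutant mossy cells and 60.9 and 63.3 in the controls, with 5 of 5 higher. The part of either in the Pcdh15 difference was not tested. In the remaining 9 types no member was called, where the share of all genes called was 0% in CA1, CA3 and excitatory neurons, 0.00992% in CA2, 0.0193% in inhibitory neurons, 0.0562% in microglia, 0.0892% in oligodendrocytes, 0.132% in OPCs and 0.383% in astrocytes. At an unadjusted p below 0.05, the members ranged from 0 of 9 in microglia, where 1.88% of all genes were lower and 1.32% higher, to 3 lower and 7 higher of 26 in CA3, where 6.14% were lower and 6.33% higher. DESeq2 called 2 over these 9 types, again with no share of all genes to set the count against.

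Pcdh15 and Cdh13 had the same sign in most of these types without passing the test. Pcdh15 measured 319 and 313 CPM in mutant CA1 nuclei and 72.6 and 154 in controls (log2 fold change 1.48, adjusted p = 0.421 by edgeR), and 163 and 162 against 72.5 and 86.6 in CA3 (log2 fold change 1.03, adjusted p = 0.145). In OPCs, where it is highest, it was at 4007 and 4081 against 4376 and 3654, and in DGCs at 95.7 and 95.1 against 131 and 101. In all nuclei it was at 714 and 511 CPM against 292 and 276, while in bulk it was at 11.2 and 9.04 against 11.7 and 12.4, so that the assays differed in direction for this gene. Cdh13 measured 126 and 102 CPM in mutant and 50.5 and 71.3 in control CA1 nuclei (log2 fold change 0.90, adjusted p = 0.421). In astrocytes it was at 43.7 and 48.2 against 13.1 and 24.2 (log2 fold change 1.25, adjusted p = 0.083 by edgeR). In CA2 and mossy cells it overlapped. Pcdh20 lay the other way in inhibitory neurons, at 3.73 and 4.63 CPM against 13.7 and 12.9, with a log2 fold change of -1.63 and an adjusted p of 0.131 by edgeR, and Pcdh8 there was at 13.9 and 13.3 against 23.9 and 22.7. In the nuclei of that type, the 7 meninges markers summed to 53.9 and 107 CPM in the mutants and 121 and 189 in the controls, with 6 lower in both mutants, and 3 of the 4 inhibitory markers were lower too, at 876 and 975 CPM against 1129 and 1121 in sum. Without the deposited clusters 14, 15 and 19, Pcdh20 had a log2 fold change of -1.56 (SE 0.28, adjusted p = 0.170 by edgeR) and Pcdh8 one of -0.70 (SE 0.20, adjusted p = 0.334). In CA1 nuclei Pcdh20 was at 11.5 and 10.6 CPM against 19.7 and 17.3 (adjusted p = 0.421), and in CA3 nuclei Pcdh8 was at 7.003 and 5.90 against 13.7 and 10.5 (adjusted p = 0.273 by edgeR).

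The difference between genotypes in DGC nuclei was tested against that in CA1 nuclei of the same mice, with 27 members in the test. Past an FDR of 0.05, which 2.52% of all genes passed, stood 5 members. Cdh4 (1.91, SE 0.21), Cdh22 (0.85, SE 0.21) and Cdh10 (0.80, SE 0.17) had the larger log2 fold change in DGC nuclei, and Pcdh15 (-1.84, SE 0.23) and Pcdh7 (-1.19, SE 0.16) the larger in CA1 nuclei. Pcdh8 had a difference of -0.85 with an adjusted p of 0.0698 by edgeR, and for Cdh13, above the controls in both types, it was 0.36 with an adjusted p of 0.303.

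Partners of the family were counted from lists of 9 catenins, 5 nectins and afadin, 17 other cadherin superfamily genes, 5 shedding proteases and 11 regulators of the protocadherin clusters. In bulk, 46 of these 47 genes were tested, 0 met the criteria of a fold change above 3 with an FDR below 0.05, and 1 had an FDR below 0.05 with no fold threshold, the giant cadherin Fat4, which acts in planar cell polarity and Hippo signaling. Fat4 measured 22.4 and 17.6 CPM in the mutants and 56.0 and 48.8 in the controls, a log2 fold change of -1.39 (SE 0.14, adjusted p = 0.027 by edgeR). In DGC nuclei Fat4 overlapped between genotypes, at 143 and 118 CPM against 120 and 81.8 (log2 fold change 0.34, adjusted p = 0.499 by edgeR). Ctnnb1 (beta-catenin), which links cadherins to the cytoskeleton and carries the Wnt signal, was at 409 and 430 CPM against 473 and 466 (adjusted p = 0.208), and Ctnna1 at 57.6 and 70.0 against 49.4 and 45.7 (adjusted p = 0.134). Of the 11 cluster regulators, 7 lay lower in both mutant libraries and 0 higher, against 25.4% and 25.8% of all genes. Their median log2 fold change was -0.17, with no FDR below 0.05. At an unadjusted p below 0.05, 4 of them were lower, where 9.94% of all genes were. Smchd1, which silences clustered protocadherins, was at 36.1 and 32.7 CPM against 44.0 and 48.9 (adjusted p = 0.0967 by edgeR). In DGC nuclei 0 of 41 tested partners was called by edgeR, with 4 higher and 0 lower at an unadjusted p below 0.05, against 7.6% and 8.42% of all genes.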

How the data were processed

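Hippocampi of 2 mutant and 2 control mice were profiled by bulk RNAseq, and of 2 and 2 by snRNAseq. Samples were grouped by genotype from their labels. For bulk RNAseq the authors deposited expected counts and TPM values per gene, made with RSEM 1.3.0 and Bowtie2 2.2.9 on mm10, and a signal matrix in which each library's expected counts are divided by its size factor. The snRNAseq reads were processed by the authors with Cell Ranger 3.1.0 and a pre-mRNA index of mm10, and they deposited UMI counts per gene and nucleus, with a size factor (a ratio) and a cell type for each nucleus. How doublets were treated is not given in the sources used here.

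Expected counts were rounded and fitted over all genes with edgeR 4.0.16 (filterByExpr, TMM, quasi-likelihood test, Benjamini-Hochberg adjustment), with the genotype as the only term. UMIs were summed per sample and deposited type, for the 11 types with at least 10 nuclei per sample, and fitted in the same way. The comparison of DGC with CA1 nuclei had a term for each mouse and an interaction. Calls needed a fold change above 3 in bulk or 2 in nuclei, with an FDR below 0.05. With 2 mice per genotype an exact permutation test cannot give a p below 0.33. Alternatives were DESeq2 1.42.0, RLE scaling, no filter, limma 3.58.1 on log2(value + 1) of the signal matrix and of TPM, the replicate number as a block, other thresholds, and leaving out each replicate. Samples with the same number deviated from their group means with a correlation of 0.02 in bulk and 0.04 to 0.36 in the nuclei, over 2 pairs, and no label gives a shared litter or day, so the numbers were not taken to pair the mice. The main bulk fit thus held no term for the sex pattern, which goes with the replicate number.

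The members, lists and rules were chosen with earlier results of these data known. Genes named are those called in any test, the 10 largest falls and rises in bulk among members whose genotypes do not overlap, the 10 highest by control TPM, up to 3 per cell type by the ratio to the next type, and 18 preset genes. Cdh3, Cdh16, Cdh26, Pcdha1, Pcdha4, Trhr, Lct and Cldn5 were named outside that rule, and the partners shown were picked from their lists after their values were seen. Start regions come from RefSeq and gene positions from GENCODE vM21. Each library is 1 mouse, so the spread is that between mice.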

Additional observations from a re-analysis of the deposited data

Results flagged for a closer look

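For 5 members the log2 fold change between genotypes differed between DGC and CA1 nuclei in a test of the difference itself. The difference (DGC minus CA1) was 1.91 for Cdh4, 0.85 for Cdh22 and 0.80 for Cdh10, and it was -1.19 for Pcdh7 and -1.84 for Pcdh15. In DGC nuclei the 4 samples of mutant 1, mutant 2, control 1 and control 2 had 14.3, 61.5, 22.2 and 32.2 CPM of Cdh22, so that the genotypes overlapped, and the same held for Cdh10, at 127, 82.6, 83.5 and 46.5 CPM. In CA1 nuclei Cdh22 was at 57.8 and 54.8 CPM in the mutants and 53.3 and 53.0 in the controls, and Cdh10 at 553 and 434 against 633 and 480. With CA3 nuclei in place of CA1 nuclei, the difference was 1.39 for Cdh4, 0.57 for Cdh10, -0.82 for Pcdh7 and -1.29 for Pcdh15, all past the threshold, and 0.63 for Cdh22, which was not (adjusted p of 0.125 by edgeR). Mutant 1 held 90 DGC nuclei. The part of ventral-marker nuclei in these differences was not tested.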

How the results depend on the processing

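The counts at a fold change above 3 in bulk stayed at 0 except with no filter on low counts (1 higher, Cdh3) and with 1 library left out (0 to 1 lower and 0 to 1 higher). The 3 members lower at an FDR below 0.05 became 9 in DESeq2, 8 with no filter, 0 on TPM values in limma, where Pcdh8, Pcdh20 and Cdh9 had adjusted p of 0.0508, 0.0611 and 0.0636, and 0 to 9 with 1 library left out. Members higher at that FDR became 2 with no filter and 0 to 1 with 1 library left out. In DGC nuclei the members called lower ranged from 0 to 2, and those called higher from 0 to 3, with 1 sample left out, and both were 0 in ventral-marker nuclei alone, a comparison chosen after seeing the data. In mossy cells the members called higher were 0 in DESeq2 and ranged from 0 to 2 with 1 sample left out. Over the remaining 9 types together, 2 were called in DESeq2, 4 with no filter and 2 to 10 with 1 sample left out, and over all nuclei DESeq2 called 4. The causes were not tested. Shares of all genes called at these settings are not given here. Neither these counts nor those of DESeq2 above can therefore be set against the whole table.

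With the replicate number as a block, 6 members were called over the remaining 9 types, 3 over all nuclei and 1 lower in mossy cells (Cdh23), while Pcdh8, Pcdh20 and Cdh9 kept their bulk calls (adjusted p of 0.042, 0.0469 and 0.0469 by edgeR) and Pcdh8, Cdh13, Cdh4 and Pcdh15 theirs in nuclei. Only 2 pairs share a number and nothing in the labels makes them pairs. In bulk, however, the replicate number follows the Xist and Ddx3y pattern, so the block there is also a term for that pattern. Shares of all genes called with the block are not given here either.

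Several log2 fold changes changed sign. With 1 bulk library left out, the log2 fold changes ran from -0.0603 to 0.0014 for the gamma cluster sum, -0.3149 to 0.0264 for Cdh13, -0.1741 to 0.0868 for Cdh4, -0.4072 to 0.1276 for Cdh6, -0.0741 to 0.7785 for Pcdh12 (0.43 with all libraries), -0.1103 to 0.0609 for Pcdh9 and -0.086 to 0.2113 for the second gene named Pcdhga8, which was at -0.0192 on TPM. In DGC nuclei, Cdh9 became -0.012 with no filter, -0.2506 to 0.2478 with 1 sample left out and -0.0233 in ventral-marker nuclei, where Pcdh7, at -0.79 in all DGC nuclei, became 0.5153, and Cdh12, at 0.41, became -0.0831. Depth limits the DGC values, since mutant 1 holds 6 UMIs of Pcdh8 and 11 of Cdh4.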

Other observations

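The nuclei deposited as choroid plexus, 184 in mutant 2 and 9 in control 1, held Pcdh7 at 544 and 487 CPM, Cdh18 at 377 and 302 and Cdh2 at 118 and 50.3. The 8 choroid plexus markers summed to 9965 CPM in these nuclei of mutant 2 and 88780 in those of control 1. Most of that gap was Ttr, at 6923 and 84987 CPM. Of the 8 markers, 6 were lower in mutant 2 and 2 higher. With 1 sample per genotype there was no test, and the values of control 1 rest on 29, 18 and 3 UMIs.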
